A study of Mus musculus with 18 samples.

Results

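Snai1, Snai2, Zeb1, Zeb2, Thbs1, Ccn1, Ccn2, Tgfbi and Tgfb2 are regulators and targets of transforming growth factor beta (TGF-beta) and YAP signalling and of epithelial-mesenchymal transition (EMT). They were taken as a named list of 9 genes and matched by Ensembl identifier to GENCODE symbols. Of the 15544 genes with values, 8 were members of this list, and Zeb1 was not analysed here. All 8 lay above the minimum level for testing, a mean of 6 log2 units over all libraries. Their levels were compared over 18 RNA-seq libraries of mouse lung cells captured on magnetic beads by EpCAM, a surface protein of epithelial cells.

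The libraries fell into 4 genotypes. The age of the mice was given as 10 to 12 weeks, in a text that does not separate the genotypes. There were 5 libraries from wild-type mice, 5 from Falcor-/- mice, 4 from Foxa2+/- mice and 4 from mice labelled Double-Het (Falcor+/-;Foxa2+/-). Falcor is a long non-coding RNA gene next to Foxa2, whose product is a forkhead transcription factor active in airway and gut epithelium. The labels name no Cre driver, treatment or strain background, and do not say that each library came from a separate animal, so the p-values measure the spread between these libraries, which may be technical.

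TGF-beta ligands are secreted in a latent form, are released from it by integrins and by proteins such as thrombospondin-1, and act through serine/threonine kinase receptors and Smad transcription factors. YAP and TAZ are coactivators that are held in the cytoplasm by the Hippo kinases and otherwise bind TEAD factors at genes such as Ccn1 and Ccn2. In EMT, the zinc-finger repressors of the Snail and ZEB families bind E-boxes and repress epithelial genes such as Cdh1, and in the lung these programmes are studied in alveolar repair and fibrosis.

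Values are the deposited levels, scaled to the same distribution in every library. The base of their log scale is not given in the sources used, was taken as 2, and sets every percentage and fold printed here. They are not taken as corrected for gene length, so no difference in level between genes is tested. Markers are ranked by level only to name the highest and lowest. The read depth behind the values is unknown. A difference is the mean log2 level of the first genotype minus that of the second, and a gene is said to have risen or fallen where its adjusted p (limma, Benjamini-Hochberg over 15249 genes) was under 0.05. Epcam lay between 13.75 and 14.48 log2 units and Cdh1 between 15.36 and 15.88 in all 18 libraries. The mean of Foxa2 was highest in wild type (12.97 log2 units), followed by Falcor-/- (12.74), Foxa2+/- (12.39) and Double-Het libraries (12.36). The Falcor transcript (9030622O22Rik) lay between 9.68 and 10.72 log2 units in wild type and between 5.39 and 7.27 in Falcor-/- libraries. Its range was 11.50 to 11.86 in Double-Het and 11.46 to 11.96 in Foxa2+/- libraries, so the libraries labelled Double-Het did not have less Falcor RNA than those labelled Foxa2+/- or wild type.

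In the libraries labelled Double-Het, 5 of the 8 genes fell against wild type, namely Snai1, Ccn2, Ccn1, Zeb2 and Tgfbi, to between 33.1% and 58.1% of the wild-type level. In Falcor-/- libraries only Zeb2 fell, to 47.1%, and in Foxa2+/- libraries only Ccn2, to 48.6%. None of the 8 rose in any of these 3 comparisons. Of all 15249 genes, 14.8% were called in Double-Het against wild type (7.57% lower, 7.21% higher), 9.47% in Falcor-/- (4.24% lower, 5.23% higher) and 6.11% in Foxa2+/- (4.15% lower, 1.96% higher). The median difference of the 8 genes was -0.94 log2 in Double-Het, -0.19 in Falcor-/- and -0.27 in Foxa2+/- libraries, where the median of all genes was 0.0693, 0.0293 and 0.0389. The 5 genes that fell in Double-Het libraries had levels below every wild-type library, as did 7.10% of all genes. Without any 1 of the 9 libraries compared, the Double-Het count stayed at 5. The 3 comparisons share the 5 wild-type libraries and are not independent.

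**Figure D1:**
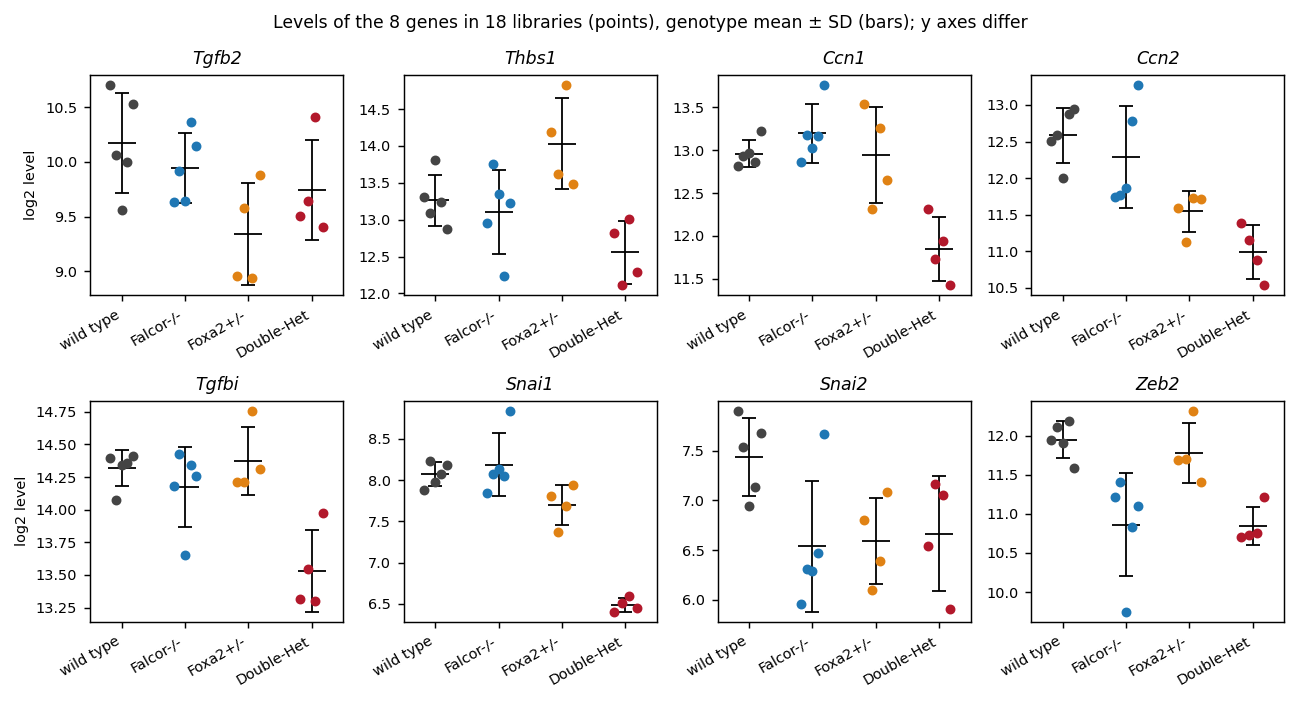
Deposited log2 level of each of the 8 genes (vertical axis, a separate range for each gene) in the 18 libraries by genotype; points are libraries, and bars give the mean and SD. The 4 Double-Het points for Snai1 sit between 6.41 and 6.60, below all 14 other libraries.

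**Figure D2:**
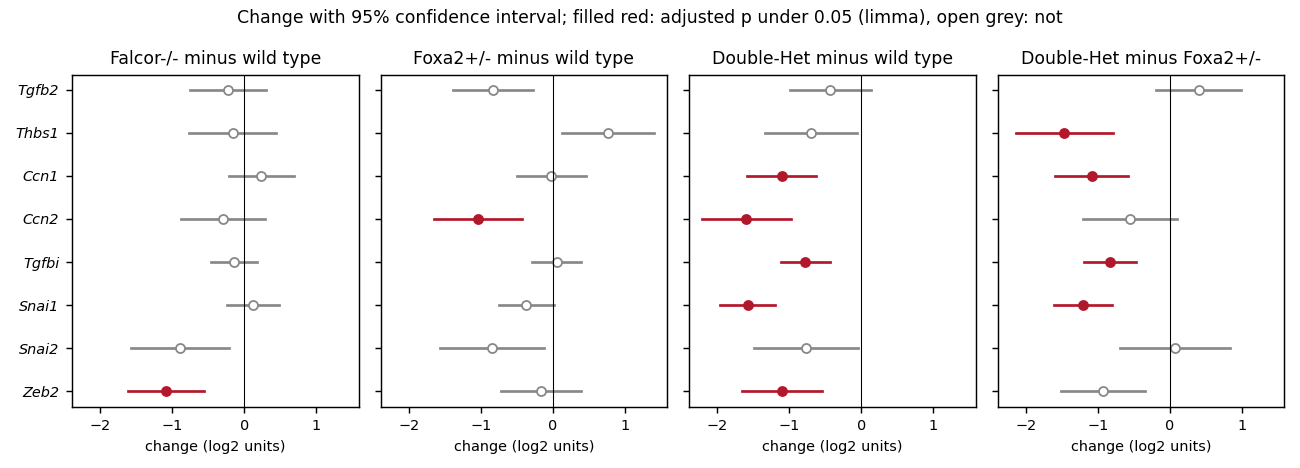
Difference of mean log2 level with its 95% confidence interval from limma for each gene in 4 comparisons; filled red points passed the adjusted p threshold of 0.05. In Double-Het against wild type 5 genes passed, with differences from -0.78 to -1.60.

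Markers of cell types other than epithelium moved with several of these differences. In Double-Het against wild type, 14 of 16 endothelial markers fell with a list median of -2.56 log2, 11 of 12 fibroblast markers fell with a median of -2.24, and 6 of 9 macrophage markers fell with a median of -1.40. In Foxa2+/- libraries 13 of 16 endothelial and 5 of 12 fibroblast markers fell, with medians of -2.16 and -1.20, and no macrophage marker passed the test (median 0.11). In Falcor-/- libraries 6 of 9 macrophage and 5 of 12 fibroblast markers fell, each list with a median of -1.05. Of the endothelial markers only Lyve1 fell, while the differences of all 16 were negative, with a median of -0.73. The log2 of the summed endothelial markers ranged from 16.09 to 17.61 in wild type, 15.76 to 17.45 in Falcor-/-, 15.18 to 15.59 in Foxa2+/- and 14.87 to 15.23 in Double-Het libraries. For the fibroblast list the same ranges were 16.41 to 17.13, 15.60 to 16.67, 15.93 to 17.07 and 15.11 to 15.35, and for the macrophage list 15.95 to 16.44, 13.87 to 16.20, 15.87 to 16.62 and 14.21 to 15.22. Of 7 smooth muscle and pericyte markers, 5 fell in Double-Het and 5 in Foxa2+/- libraries, with medians of -1.54 and -1.62, and none passed in Falcor-/- libraries (median -0.62). Of the platelet markers only Pf4 and Itga2b had values. Pf4 fell by 3.16 in Double-Het and by 1.48 in Falcor-/- libraries and was at 0.21 in Foxa2+/- libraries. Itga2b did not pass the test in any of these, and the medians of the pair were -1.60, -0.67 and 0.17. Of 6 mesothelial markers none fell in any of the 3 genotypes and 1 rose in Falcor-/- libraries. Their medians were -0.43 in Double-Het, 0.37 in Foxa2+/- and -0.59 in Falcor-/- libraries. None of 5 lymphocyte markers passed the test, with medians of -0.31, -0.48 and -0.17 in the same order. Of 8 epithelial markers, 1 fell in Double-Het and 1 in Foxa2+/- libraries, with medians of 0.0218 and -0.0376. None passed in Falcor-/- libraries (median 0.00998). The summed epithelial markers lay between 20.09 and 20.26 in all 18 libraries. The highest of them by mean level, Sftpc (18.70 log2 units), lay close to the highest value of any gene, on a scale shared by all libraries. The sum is weighted to such genes and cannot show whether epithelial content was constant. By mean level, the lowest-expressed markers were Emcn among endothelial, Tcf21 among fibroblast and Msr1 among macrophage markers. Over all markers and libraries, the lowest values in these lists were 7.12, 5.27 and 5.09 log2 units. The lowest value of any gene was 1, so no marker could be at 0. How close the lowest marker values lie to background is unknown. In bulk libraries fewer cells of a type and less RNA per cell cannot be told apart.

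With the mean of the endothelial markers as a covariate, none of the 8 genes passed the limma test in Double-Het against wild type, and with the fibroblast mean likewise none passed, while 2 and 4 had an unadjusted p under 0.05. The number of all genes called then went from 2254 to 1 and 4, and genotype accounted for 81.6% and 76.9% of the variance of these covariates over libraries. The difference for Snai1 was -1.03 log2 with the endothelial and -0.84 with the fibroblast covariate (unadjusted p = 0.0112 and 0.0167 from limma). Those for Ccn2 were -0.22 and -0.21. With the macrophage mean as a covariate, chosen after seeing the data, Snai1 alone passed (-1.79, adjusted p = 0.0118), and the differences for Zeb2 and Tgfbi were -0.34 and -0.20. The part of cell makeup in the differences was not tested beyond these values.

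Tgfb2 encodes a TGF-beta ligand. Its levels were 10.71, 10.06, 9.56, 10.00 and 10.53 log2 units in wild type and 9.63, 9.92, 9.64, 10.37 and 10.15 in Falcor-/- libraries. They were 8.96, 9.58, 8.94 and 9.88 in Foxa2+/- and 9.51, 9.64, 10.41 and 9.40 in Double-Het libraries. All 4 genotypes overlapped, and their means ran in the order wild type (10.17 ± 0.46, SD, n = 5), Falcor-/- (9.94 ± 0.32, n = 5), Double-Het (9.74 ± 0.46, n = 4) and Foxa2+/- (9.34 ± 0.47, n = 4), each neighbouring pair within 1 SD. Tgfb2 did not pass the test against wild type in any genotype, with differences of -0.23 in Falcor-/-, -0.83 in Foxa2+/- and -0.43 in Double-Het libraries (adjusted p = 0.527, 0.0770 and 0.293, limma). The Foxa2+/- difference passed without wild-type replicate 3 (-0.98, adjusted p = 0.0288) and without Foxa2+/- replicate 14 (-1.01, adjusted p = 0.0468).

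Thbs1 encodes thrombospondin-1, a matricellular protein that can release TGF-beta from its latent complex. Its levels were 13.31, 13.09, 13.80, 13.23 and 12.88 log2 units in wild type and 12.95, 13.76, 13.35, 12.23 and 13.23 in Falcor-/- libraries. In Foxa2+/- libraries they were 14.19, 13.62, 14.83 and 13.48, and in Double-Het libraries 12.82, 12.11, 13.01 and 12.30. The Foxa2+/- libraries were the high ones and the Double-Het libraries the low ones, without overlap between them, while each overlapped wild type. Against wild type the differences were 0.77 in Foxa2+/- (SE 0.30), -0.16 in Falcor-/- (SE 0.29) and -0.70 in Double-Het libraries (SE 0.30), and none passed the test (adjusted p = 0.165, 0.715 and 0.130). Thbs1 was lower in Double-Het than in Foxa2+/- libraries, with a difference of -1.47 log2 units, at 36.1% of the Foxa2+/- level (adjusted p = 0.0249, limma; exact permutation p = 0.0286, the smallest that 4 against 4 libraries can give). This call was lost without Foxa2+/- replicate 11 (-1.42, adjusted p = 0.0518), without Foxa2+/- replicate 13 (-1.20, adjusted p = 0.0981) or without Double-Het replicate 16 (-1.32, adjusted p = 0.0817).

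Ccn1, Snai1 and Tgfbi fell in Double-Het libraries against each of the other genotypes. Ccn1 encodes a secreted YAP-induced matrix protein and Snai1 a Snail-family repressor. The 250 bases before the transcription starts of Ccn1 and Snai1 are shown, because letters of a pathway motif were found in these 2 windows. The window of Tgfbi, which fell likewise, held none and is not shown. In the RefSeq table of GRCm38.p6, Ccn1 starts on the minus strand after chr3:145649986-145650235 and Snai1 on the plus strand after chr2:167537945-167538194. Capitals mark the match to a TEAD motif, CATTCC, which reads GGAATG from the other strand, in Ccn1 and to a Snail/ZEB E-box, CACCTG, which reads CAGGTG from the other strand, in Snai1.
Ccn1: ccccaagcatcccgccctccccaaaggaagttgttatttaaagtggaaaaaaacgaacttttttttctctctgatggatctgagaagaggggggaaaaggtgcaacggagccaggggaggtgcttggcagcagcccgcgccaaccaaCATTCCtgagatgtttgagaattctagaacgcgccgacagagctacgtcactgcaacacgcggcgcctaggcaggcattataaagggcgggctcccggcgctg
Snai1: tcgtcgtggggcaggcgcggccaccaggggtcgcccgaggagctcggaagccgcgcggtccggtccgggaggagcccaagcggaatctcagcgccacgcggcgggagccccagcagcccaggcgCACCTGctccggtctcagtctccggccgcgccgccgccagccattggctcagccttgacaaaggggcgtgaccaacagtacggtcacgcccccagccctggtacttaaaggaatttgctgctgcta
The TEAD letters of Ccn1 lay 103 to 98 bases before the start, and 12.6% of 32851 RefSeq promoter windows of the same length hold them on either strand. The E-box letters of Snai1 lay 126 to 121 bases before the start, and 17.2% of windows hold them. The letters of an AP-1 motif (TGANTCA, in 6.75% of windows), a forkhead motif (TGTTTAC, which reads GTAAACA from the other strand, in 3.17%) and a palindromic Smad motif (GTCTAGAC, in 0.167%) are not in either window. Of the other members in the table, the windows of Tgfb2 and Tgfbi held none of the 5 motifs. Of the 4 windows of Zeb2, 1 held the TEAD letters and a pair of AP-1 matches and the other 3 held none. The searched motifs did not overlap each other in these windows, and a match is a description of letters only.

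Ccn1, also called Cyr61, had levels of 12.82, 12.93, 12.96, 12.86 and 13.22 log2 units in wild type and 12.86, 13.17, 13.03, 13.16 and 13.76 in Falcor-/- libraries. In Foxa2+/- libraries it stood at 13.54, 12.31, 13.26 and 12.66, and in Double-Het libraries at 12.31, 11.73, 11.94 and 11.43. The Double-Het libraries were all below the wild-type and Falcor-/- libraries, and the highest of them met the lowest Foxa2+/- library. Ccn1 fell by 1.11 log2 units in Double-Het against wild type (SE 0.23), to 46.4% (adjusted p = 0.00361, limma; exact permutation p = 0.00794, the smallest that 5 against 4 libraries can give). The differences from wild type were 0.24 in Falcor-/- and -0.0195 in Foxa2+/- libraries (adjusted p = 0.441 and 0.981), with 95% intervals of -0.22 to 0.69 and -0.50 to 0.46. The means ran in the order Falcor-/- (13.20 ± 0.34), wild type (12.96 ± 0.16), Foxa2+/- (12.94 ± 0.56) and Double-Het (11.85 ± 0.37), and only the last step was larger than the SDs on both sides of it.

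Ccn2, also called Ctgf, encodes connective tissue growth factor and is induced by both TGF-beta and YAP. Its levels were 12.51, 12.59, 12.00, 12.88 and 12.94 log2 units in wild type and 11.75, 11.77, 11.86, 12.78 and 13.28 in Falcor-/- libraries. They were 11.60, 11.13, 11.73 and 11.72 in Foxa2+/- and 11.38, 11.16, 10.88 and 10.54 in Double-Het libraries. The Foxa2+/- and Double-Het libraries lay wholly below wild type and overlapped each other, while the Falcor-/- libraries were split, 3 below every wild-type library and replicates 9 and 10 among or above them. Ccn2 fell by 1.60 log2 units in Double-Het libraries (SE 0.29), to 33.1% of wild type (adjusted p = 0.00144, limma; exact permutation p = 0.00794). It fell by 1.04 in Foxa2+/- libraries (SE 0.29), to 48.6% (adjusted p = 0.0423; exact permutation p = 0.0159), where 5.48% of all genes lay wholly below wild type. The Foxa2+/- call was kept without wild-type replicate 3 and lost without any other 1 of the 9 libraries, with differences from -0.90 to -1.18 over all 9 runs. In Falcor-/- libraries the difference was -0.30 (95% interval -0.88 to 0.28, adjusted p = 0.454). The endothelial markers were lowest in the same 2 genotypes, and with their mean as a covariate the Foxa2+/- difference of Ccn2 was 0.0845.

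Tgfbi encodes a secreted matrix protein named for its induction by TGF-beta, and macrophages express it too. Its levels were 14.39, 14.07, 14.35, 14.36 and 14.41 log2 units in wild type and 14.19, 14.42, 13.65, 14.34 and 14.26 in Falcor-/- libraries. They were 14.21, 14.21, 14.76 and 14.31 in Foxa2+/- and 13.32, 13.55, 13.30 and 13.97 in Double-Het libraries. The Double-Het libraries lay below all wild-type and Foxa2+/- libraries, and Falcor-/- replicate 8, at 13.65, was the single library of another genotype that fell among them. Tgfbi fell by 0.78 log2 units in Double-Het against wild type (SE 0.16), to 58.1% (adjusted p = 0.00376, limma; exact permutation p = 0.00794). The differences in Falcor-/- and Foxa2+/- libraries were -0.14 and 0.0563 (adjusted p = 0.519 and 0.911), with 95% intervals of -0.46 to 0.18 and -0.29 to 0.40. The means of Foxa2+/- (14.37 ± 0.26), wild type (14.32 ± 0.14) and Falcor-/- libraries (14.17 ± 0.30) differed by less than the larger SD of each neighbouring pair, and that of Double-Het libraries (13.53 ± 0.31) was lower. Falcor-/- replicate 8 was also the library with the lowest mean of the macrophage markers, 9.45 log2 units. In Falcor-/- replicates 6 and 10 this mean was also low, 10.67 and 10.38, with Tgfbi at 14.19 and 14.26. In replicates 7 and 9 it was 11.92 and 12.37, with Tgfbi at 14.42 and 14.34.

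Snai1 encodes the Snail repressor. Its levels were 7.87, 8.23, 7.98, 8.08 and 8.18 log2 units in wild type and 7.85, 8.08, 8.13, 8.05 and 8.84 in Falcor-/- libraries. They were 7.80, 7.37, 7.69 and 7.94 in Foxa2+/- and 6.41, 6.50, 6.60 and 6.45 in Double-Het libraries. The 4 Double-Het libraries were the lowest of all 18 and spread over 0.08 log2 units (SD), while the other genotypes overlapped each other. Snai1 fell by 1.58 log2 units in Double-Het against wild type (SE 0.18), to 33.4% (adjusted p = 4.95e-05, limma; exact permutation p = 0.00794). The Double-Het values lie little above 6 log2 units, the minimum mean for testing. With depth unknown, how much background adds to them, and so to the percentage, cannot be given. The mean order was Falcor-/- (8.19 ± 0.38), wild type (8.07 ± 0.14), Foxa2+/- (7.70 ± 0.24) and Double-Het (6.49 ± 0.08). The Falcor-/- and Foxa2+/- differences from wild type were 0.12 and -0.37 (adjusted p = 0.640 and 0.282), with 95% intervals of -0.24 to 0.48 and -0.75 to 0.0148.

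Snai2 encodes Slug, a second Snail-family repressor. Its levels were 7.90, 7.54, 6.94, 7.13 and 7.67 log2 units in wild type and 5.96, 6.31, 6.29, 6.47 and 7.66 in Falcor-/- libraries. They were 6.80, 6.10, 6.39 and 7.08 in Foxa2+/- and 6.54, 7.17, 7.05 and 5.91 in Double-Het libraries. Wild type had the highest mean (7.44 ± 0.39), the 3 other genotypes had means from 6.54 to 6.67, and each overlapped wild type. The differences from wild type were -0.90 in Falcor-/-, -0.84 in Foxa2+/- and -0.77 in Double-Het libraries, and none passed the test (adjusted p = 0.0741, 0.177 and 0.142, limma). Without Falcor-/- replicate 10, the single library of that genotype among the wild-type values, Snai2 passed (-1.18, adjusted p = 0.0251), which made 2 genes called in Falcor-/- against wild type. The endothelial and smooth muscle markers of that library were also the highest of its genotype, with list means of 13.08 and 9.59 log2 units.

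Zeb2 encodes a ZEB-family repressor that is also expressed in macrophages and other myeloid cells. Its levels were 11.95, 12.11, 11.91, 12.19 and 11.59 log2 units in wild type and 11.22, 11.41, 9.75, 10.84 and 11.10 in Falcor-/- libraries. They were 11.68, 11.71, 12.32 and 11.40 in Foxa2+/- and 10.70, 10.73, 10.75 and 11.21 in Double-Het libraries. The Falcor-/- and Double-Het libraries were all below wild type, and the Foxa2+/- libraries overlapped it. Zeb2 fell by 1.09 log2 units in Falcor-/- (SE 0.25), to 47.1% (adjusted p = 0.0192, limma; exact permutation p = 0.00794), where 2.31% of all genes lay wholly below wild type. It fell by 1.10 in Double-Het libraries (SE 0.26), to 46.7% (adjusted p = 0.00993; exact permutation p = 0.00794). The Foxa2+/- difference was -0.17 (95% interval -0.73 to 0.39, adjusted p = 0.812). The means of Falcor-/- (10.86 ± 0.66) and Double-Het libraries (10.85 ± 0.24) were within 1 SD of each other, as were those of wild type (11.95 ± 0.23) and Foxa2+/- (11.78 ± 0.39). The macrophage markers fell in the same 2 genotypes, and Falcor-/- replicate 8 had both the lowest Zeb2 and the lowest macrophage mean. In Falcor-/- replicates 6, 7, 9 and 10 the macrophage means were 10.67, 11.92, 12.37 and 10.38, with Zeb2 at 11.22, 11.41, 10.84 and 11.10. Replicate 9 thus had low Zeb2 with a macrophage mean inside the wild-type range of 12.05 to 12.64. With the macrophage mean as a covariate the Falcor-/- difference was -0.57 (adjusted p = 0.319), and the call was also lost with the endothelial mean (-0.88, adjusted p = 0.106), with the mean of immediate early genes (-1.22, adjusted p = 0.0627) or with only the libraries of Falcor-/- and wild type in the fit (adjusted p = 0.0529). In these fits 50, 165, 169 and 483 of all genes were called, against 1444 with all libraries and no covariate.

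**Figure D3:**
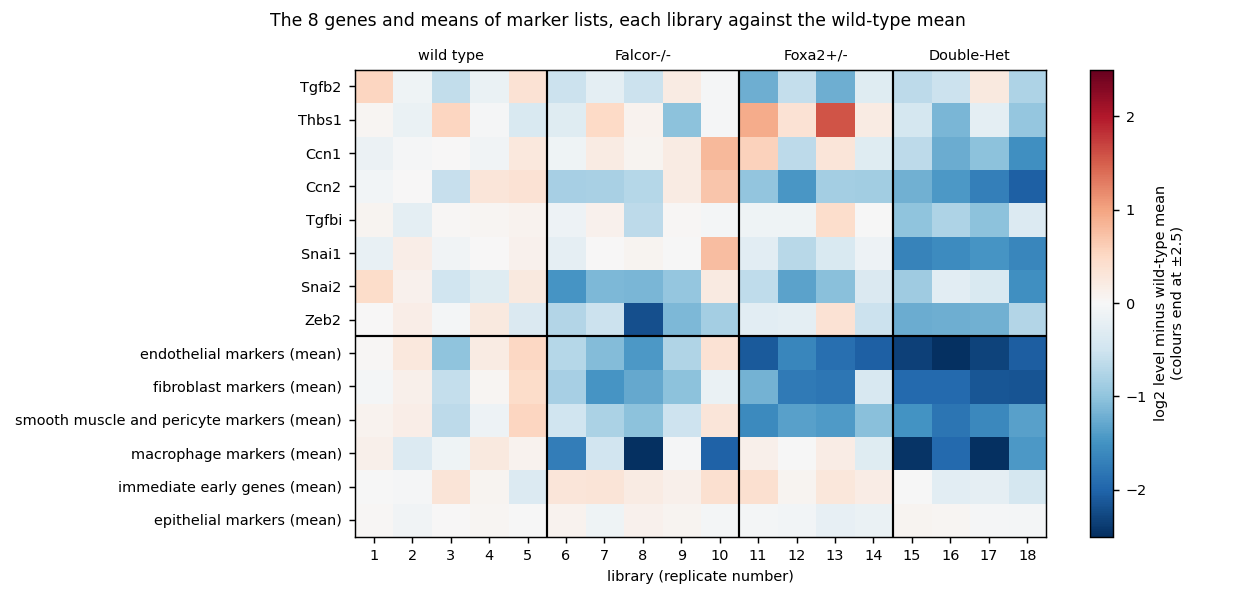
Level of each of the 8 genes and mean level of each marker list in the 18 libraries, as the difference from the wild-type mean in log2 units; colours end at 2.5 on either side. The macrophage row is low in Falcor-/- replicates 6, 8 and 10 and in all Double-Het libraries, and the endothelial row in all Foxa2+/- and Double-Het libraries.

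The libraries labelled Double-Het were next compared with the Foxa2+/- libraries, whose range of Falcor RNA overlapped theirs. Of the 8 genes, 4 were lower, namely Snai1, Tgfbi, Thbs1 and Ccn1, where 2.43% of all genes were called (1.37% lower, 1.06% higher). The median difference of the 8 was -0.88 log2 against 0.0232 for all genes. Snai1 was at -1.21 (adjusted p = 0.00399, limma) and kept this call without any 1 of the 8 libraries. Tgfbi was at -0.84 (adjusted p = 0.0181) and Ccn1 at -1.09 (adjusted p = 0.0260). Tgfbi lost its call without Foxa2+/- replicate 13 (-0.71, adjusted p = 0.0747) and without Double-Het replicates 15 or 17 (adjusted p = 0.0587 and 0.0581), and Ccn1 without Foxa2+/- replicates 11 or 13 or Double-Het replicates 16, 17 or 18 (adjusted p from 0.0553 to 0.103). Zeb2 was at -0.93 without overlap, as were 5.38% of all genes, and did not pass the test (adjusted p = 0.0863; exact permutation p = 0.0286).

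Some markers of other cell types and some immediate early genes also differed between these 2 genotypes. Between Double-Het and Foxa2+/- libraries, 5 of 9 macrophage markers (median -1.32), 1 of 16 endothelial markers (median -0.34) and 2 of 12 fibroblast markers (median -0.74) were lower. Of the platelet markers, Pf4 was lower (-3.37, adjusted p = 0.000258, limma) and Itga2b did not pass the test. None of the smooth muscle and pericyte, mesothelial, lymphocyte or epithelial markers passed the limma test. Of 14 immediate early genes, which tissue dissociation can induce, 4 were lower, Fos, Jun, Dusp1 and Klf6, with a list median of -0.44. With the endothelial mean as a covariate the difference of Snai1 was -1.11 (adjusted p = 0.00909) and with the fibroblast mean -0.94 (adjusted p = 0.0234). Thbs1 and Tgfbi also kept their calls with each of these, and Ccn1 lost its call (-1.02 and -0.93, adjusted p = 0.0514 and 0.0926). With the macrophage mean as a covariate Snai1 was at -1.42 (unadjusted p = 0.000170, adjusted p = 0.155) and Tgfbi at -0.26 (adjusted p = 0.726), and none of the 4 kept its call. With the mean of the immediate early genes, a covariate also chosen after seeing the data, none kept its call either: Snai1 was at -1.13, Tgfbi at -0.94, Thbs1 at -0.64 and Ccn1 at -0.63 (adjusted p = 0.121, 0.140, 0.557 and 0.462). Of all genes, 370 were called without a covariate and 259, 292, 4 and 29 with the endothelial, fibroblast, macrophage and immediate early means. The loss of calls with the macrophage and immediate early means was therefore not particular to these genes.

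Against Falcor-/- libraries, the same Double-Het libraries had lower Snai1 (-1.70, adjusted p = 0.000119, limma), Ccn1 (-1.34, adjusted p = 0.00398), Ccn2 (-1.30, adjusted p = 0.0156) and Tgfbi (-0.64, adjusted p = 0.0289), where 5.15% of all genes were called in either direction. The ranges of Snai1, Ccn1 and Ccn2 did not overlap, as for 4.05% of all genes with lower values. Snai1 and Ccn1 passed without any 1 of the 9 libraries. Ccn2 lost its call without Double-Het replicate 17 (adjusted p = 0.0501), and Tgfbi without Falcor-/- replicates 6, 9 or 10 or Double-Het replicates 15, 16 or 17 (adjusted p from 0.0541 to 0.110). In the same comparison 12 of 16 endothelial markers (median -1.79), 4 of 12 fibroblast markers (median -1.05), 4 of 7 smooth muscle and pericyte markers (median -1.03) and 7 of 14 immediate early genes (median -0.44) were lower, and no macrophage marker passed (median -0.75). With the endothelial mean as a covariate none of the 4 genes kept its call. Snai1 was then at -1.32, Ccn1 at -1.10, Tgfbi at -0.44 and Ccn2 at -0.35 (adjusted p = 0.229, 0.566, 0.884 and 0.991). With the fibroblast or the immediate early mean Snai1 alone kept its call (adjusted p = 0.0285 and 0.0334), and with the macrophage mean all 4 did. Of all genes, 785 were called without a covariate and 4, 7, 144 and 634 with the endothelial, fibroblast, immediate early and macrophage means. Zeb2, low in both genotypes, differed by -0.0135 (95% interval -0.57 to 0.54). The 3 comparisons of Double-Het libraries share those 4 libraries and are not independent.

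Between Falcor-/- and Foxa2+/- libraries 2 of the 8 genes differed, where 16.7% of all genes were called (8.10% lower, 8.56% higher). Zeb2 was lower in Falcor-/- libraries (-0.92, adjusted p = 0.0293, limma), as was Thbs1 (-0.93, adjusted p = 0.0463). The Zeb2 call was lost without Falcor-/- replicate 9 or Foxa2+/- replicates 12 or 13, and that of Thbs1 in 7 of 9 such runs, those without Falcor-/- replicates 6, 8, 9 or 10 or Foxa2+/- replicates 11, 12 or 13. Ccn2 was 0.74 higher in Falcor-/- libraries without overlap, as were 6.86% of all genes, and did not pass the test (adjusted p = 0.0810); it passed without Falcor-/- replicate 7. Snai1 and Tgfb2 were 0.49 and 0.60 higher (adjusted p = 0.0687 and 0.113). Between these genotypes 6 of 9 macrophage markers were lower in Falcor-/- libraries (median -1.11), while 12 of 16 endothelial markers (median 1.37) and 4 of 7 smooth muscle and pericyte markers (median 0.78) were higher. Of the fibroblast markers 4 were higher and 2 lower. With the macrophage mean as a covariate Zeb2 was at -0.40 (adjusted p = 0.405) and Thbs1 at -1.19 (adjusted p = 0.109). With the endothelial mean Zeb2 was at -1.25 and Thbs1 at -0.58 (adjusted p = 0.107 and 0.451), and Ccn2 was at 0.0439. Of all genes, 2540 were called without a covariate, 163 with the macrophage and 82 with the endothelial mean.

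Of all genes tested against wild type, 7.57% fell and 7.21% rose in Double-Het libraries. The shares were 4.15% and 1.96% in Foxa2+/- and 4.24% and 5.23% in Falcor-/- libraries. Counts of 1 or 2 in this and the following gene lists are not read as results about the lists. Among 13 TGF-beta ligands and activators, which include Tgfb2 and Thbs1, 4 fell in Double-Het libraries against wild type and none rose, with a median of -0.43 log2. Ltbp1 and Ltbp2, latent TGF-beta binding proteins of the matrix, were at -2.14 and -1.24 (adjusted p = 0.000182 and 0.000660, limma), and Lrrc32, which anchors latent TGF-beta to the cell surface, at -1.94 (adjusted p = 0.000432). Among the same genes, 4 fell and 1 rose in Foxa2+/- libraries. Ltbp2 was at -1.46, Ltbp1 at -2.09 and Lrrc32 at -1.81 (adjusted p = 0.000667, 0.000738 and 0.00152), and the gene that rose was Tgfb3, a ligand (0.80, adjusted p = 0.0198). Falcor-/- libraries had 2 that fell, Ltbp1 (-1.04, adjusted p = 0.0364) and Itgav, an integrin chain that activates latent TGF-beta (-0.27, adjusted p = 0.0482). The list medians were -0.25 and -0.23 in these 2 comparisons.

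Of 12 receptors and Smads, 3 fell in Double-Het libraries and none rose, with a median of -0.0647. The 3 were Eng (-2.65, adjusted p = 0.000118, limma), Acvrl1 (-1.71, adjusted p = 0.000247) and Tgfbr3 (-1.55, adjusted p = 0.00110); Eng and Acvrl1 are receptors of vascular endothelium, and Eng is one of the endothelial markers above. The same 3 fell in Foxa2+/- libraries, with differences of -2.02, -1.49 and -1.34 (list median -0.0439). Tgfbr3, a coreceptor, and Smad5, a transducer, fell in Falcor-/- libraries, with differences of -1.16 and -0.20 (list median -0.21).

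Of 10 inhibitors with enough signal, 4 fell in Double-Het libraries, among them the inhibitory Smads Smad7 (-0.52, adjusted p = 0.00173, limma) and Smad6 (-1.37, adjusted p = 0.00462) and the ubiquitin ligase Smurf2 (-0.28, adjusted p = 0.0274), with a list median of -0.0499. Smad6 fell by 1.28 and Pmepa1 rose by 0.25 in Foxa2+/- libraries (median 0.12), and the corepressor Ski fell by 0.28 in Falcor-/- libraries (median -0.0172).

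The 19 TGF-beta target genes, with Tgfbi and Ccn2 among them, had 11 members that fell in Double-Het libraries and none that rose, with a median of -0.80. Postn, the matrix protein periostin, was at -3.31 (adjusted p = 8.53e-05, limma), and Tagln, an actin-binding protein of smooth muscle, at -1.18 (adjusted p = 0.000285). Ltbp2 is a member of this list too. Foxa2+/- libraries had 5 that fell and 1 that rose, with Postn at -2.74 and Tagln at -0.93 and a list median of -0.53. The single call in Falcor-/- libraries was a rise of Id2, a helix-loop-helix inhibitor (0.36, adjusted p = 0.0240), with a list median of -0.14. Several of these targets are genes of other cell types: Col1a1 and Col1a2 are also fibroblast markers and Tagln and Acta2 smooth muscle markers here. Between Double-Het and Foxa2+/- libraries 2 of the 19 were lower, Tgfbi and Cdkn1a, a cell-cycle inhibitor (-0.89, adjusted p = 0.00857).

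Of 23 Hippo and YAP components, 7 fell in Double-Het libraries and none rose (median -0.18). Those with the smallest p were Amotl2 and Amotl1, angiomotins that bind YAP (-0.44 and -0.87), and Tead4, a DNA-binding partner of YAP (-0.82; adjusted p = 0.00501, 0.00775 and 0.00556, limma). The 2 that fell in Foxa2+/- libraries were Tead2 (-1.02, adjusted p = 0.00914) and Wwtr1, which encodes TAZ (-0.43, adjusted p = 0.0325; list median -0.10). In Falcor-/- libraries 4 fell, among them the kinase Lats2 (-0.47), Amotl1 (-0.79) and the phosphatase Ptpn14 (-0.53), with a median of -0.19 (adjusted p = 0.0135, 0.0234 and 0.0357).

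Of 23 YAP target genes, which include Ccn1, Ccn2 and Tgfb2, 7 fell in Double-Het libraries, 5 in Foxa2+/- and 3 in Falcor-/- libraries, with medians of -0.43, -0.17 and -0.17. Of all genes, 7.57%, 4.15% and 4.24% fell in these comparisons. Igfbp3, an insulin-like growth factor binding protein, fell in each of the 3 genotypes, with differences of -3.02, -1.92 and -1.59 (adjusted p = 9.54e-05, 0.00546 and 0.0203, limma). Foxf2, a forkhead factor of mesenchyme, was at -2.47 in Double-Het and -2.54 in Foxa2+/- libraries, and Nt5e, an ectonucleotidase, at -1.27 in Foxa2+/- libraries. Gadd45a, a stress-induced gene, was the single target that rose, by 0.58 in Falcor-/- libraries (adjusted p = 0.0262). Against Foxa2+/- libraries, 1 of the 23 was lower in Double-Het libraries, Ccn1, where 1.37% of all genes were lower.

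**Figure D4:**
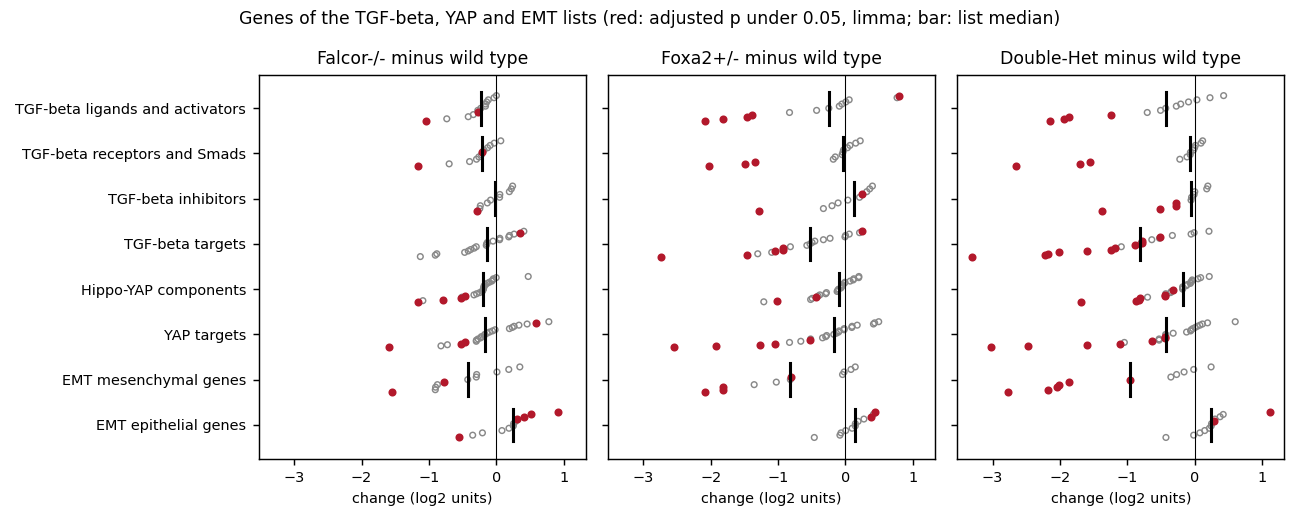
Difference of mean log2 level from wild type for every tested gene of 8 lists in the 3 mutant genotypes; points are genes, and the bar is the list median. The medians of TGF-beta targets and of mesenchymal genes in Double-Het libraries are -0.80 and -0.96.

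Among genes that mark the states on either side of EMT, 6 of 11 mesenchymal genes fell in Double-Het, 4 in Foxa2+/- and 2 in Falcor-/- libraries, with medians of -0.96, -0.82 and -0.42. Mmp2, a matrix metalloproteinase, fell in each, with differences of -1.86, -2.09 and -0.77 (adjusted p = 8.40e-05, 0.000595 and 0.0415, limma), and Fbn1, the matrix protein fibrillin-1, was at -2.77 in Double-Het and -1.55 in Falcor-/- libraries. Tnc, the matrix protein tenascin-C, was at -2.02 in Double-Het and -1.81 in Foxa2+/- libraries. Of 12 epithelial genes, 2 rose in Double-Het libraries, Cldn4, a tight junction protein (1.11, adjusted p = 0.00162), and Krt8, a keratin (0.29, adjusted p = 0.0376), and none fell. Krt8 and Krt18 rose by 0.44 and 0.38 in Foxa2+/- libraries, and in Falcor-/- libraries 4 rose, among them Cldn4 (0.91) and Krt19 (0.51), while the junction scaffold Tjp1 fell by 0.56. The medians of the epithelial genes were 0.25, 0.15 and 0.26 in Double-Het, Foxa2+/- and Falcor-/- libraries. In the same comparisons 11, 5 and 5 of 12 fibroblast markers fell, with medians of -2.24, -1.20 and -1.05. In bulk libraries a change within epithelial cells and fewer cells of other types cannot be told apart, and an EMT shift was not tested.

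Of 8 other EMT transcription factors 3 had values, and Tcf4, an E-protein, fell in Double-Het libraries (-0.63, adjusted p = 0.00613, limma) and was at -0.39 in Falcor-/- libraries (adjusted p = 0.0650). Of 7 factors that maintain epithelial splicing or transcription, the zinc-finger factor Ovol1 rose in Falcor-/- and Foxa2+/- libraries (0.52 and 0.73, adjusted p = 0.0325 and 0.00525) and Grhl2, a grainyhead factor, in Double-Het libraries (0.35, adjusted p = 0.0273). In the wider CCN, thrombospondin, TGF-beta and Snail families, 14 of 21 genes had values, of which 7 fell in Double-Het, 3 in Foxa2+/- and 1 in Falcor-/- libraries. Ccn5, a CCN protein of smooth muscle and fibroblasts, fell in Double-Het and Foxa2+/- libraries, with differences of -2.75 and -2.86.

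The genes whose levels were most like those of each member over the 18 libraries were listed by Pearson r, which includes the differences between genotypes. For Snai1 these were Pde4b, Phf24 and Edn1 (r = 0.913, 0.901 and 0.899), and after subtracting genotype means their r was 0.470, -0.0121 and 0.298. For Ccn1 they were Irf1, Snai1 and Ppp1r15a (0.895, 0.882 and 0.870), with r of 0.800, 0.576 and 0.690 after subtraction.

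For Zeb2 the most alike were Gbp7, Irak3 and Peli2 (0.942, 0.937 and 0.914), for Tgfbi Gatm, Vsir and Ifi207 (0.932, 0.898 and 0.883), and Zeb2 and Tgfbi had r of 0.713 with each other, 0.734 within genotypes. For Ccn2 they were Gpx3, Lims2 and Ctla2a (0.961, 0.941 and 0.940). For Thbs1 they were Arid5a, Peg10 and Epha2 (0.907, 0.904 and 0.884), for Snai2 Bche, Fkbp9 and Dpysl3 (0.816, 0.789 and 0.789), and for Tgfb2 Sema3a, Col4a5 and Vegfd (0.885, 0.851 and 0.835). These values are over 18 libraries that share genotypes and cell makeup.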

How the data were processed

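The authors deposited 1 set of expression levels, taken as log2, for each of 18 libraries. STAR, limma and the mm9 build are named, without their roles, per the submitters' processing notes. The versions, the read counter, the annotation and the strand setting are not given in the sources used. The deposited log2 values are close to identically distributed (over the top 90% of ranks, any pair of libraries differs by at most 0.0512 log2 units at equal rank), and each level is therefore relative to the rest of its library. Depth is unknown, and no counting interval is given.

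Symbols came from GENCODE vM21 by Ensembl identifier (14994 of 15544 matched), for names only. Genes with a mean under 6 log2 over all libraries were left out (295), which left 15249. A model with 1 mean per genotype over 18 libraries was fitted with limma 3.58.1 in R 4.3.3 (empirical Bayes with a trend on level, 14 residual df, 17 total df), with Benjamini-Hochberg adjustment over the genes tested and a threshold of 0.05. Single genes were also compared by an exact permutation test, 2-sided on the absolute difference of means. The fit was tested on simulated data. Its alternatives were no filter, no trend, library weights, only the genotypes compared, marker means as covariates and leaving out each library.

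Named were the members and, of each other list and comparison with wild type, up to 3 called genes with the smallest p (where none was called, up to 2). Also named were the 3 genes of highest Pearson r with each member, among the 13481 genes ranked for likeness. Tgfb3, Ccn5, Cdkn1a, Lyve1 and the immediate early genes named were singled out after their values were seen. The members and gene lists were chosen with earlier results of these data known. Promoter sequences and motif searches used the RefSeq table of GRCm38.p6, in which 5 members were found, Tgfb2, Zeb2, Snai1, Ccn1 and Tgfbi.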

Additional observations from a re-analysis of the deposited data

Results flagged for a closer look

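In 32 groups (8 genes in 4 genotypes), 3 had a single library far from the rest of its group by Dixon's criterion, which chance gives in about 1 in 20 groups. Snai1 in Falcor-/- replicate 10 was 8.84 log2 units, above the other 4 libraries of that genotype (7.85 to 8.13). Zeb2 in Double-Het replicate 18 was 11.21, above the other 3 (10.70 to 10.75). Tgfbi in wild-type replicate 2 was 14.07, below the other 4 (14.35 to 14.41).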

How the results depend on the processing

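No paired analysis was possible because no replicate number is shared between genotypes. The fall of 5 genes in Double-Het against wild type was kept with no filter, no trend, library weights, only these genotypes in the fit, and the immediate early covariate. The number of the 8 genes called by limma went from 5 to 0 with the endothelial, 0 with the fibroblast and 1 with the macrophage mean as a covariate, which vary mostly between genotypes. In Falcor-/- against wild type the count went from 1 to 0 with only these genotypes and with the endothelial, macrophage or immediate early covariate. In Foxa2+/- against wild type it went from 1 to 0 with no trend and with each of the 4 covariates, and to 2 with library weights. In Falcor-/- against Foxa2+/- it went from 2 to 1 with no trend, 4 with weights, and 0 with only these genotypes and with the endothelial, fibroblast or macrophage covariate. In Double-Het against Foxa2+/- it went from 4 to 1 with only these genotypes and to 0 with the macrophage or immediate early covariate, to 3 with the endothelial and 3 with the fibroblast covariate (Ccn1 lost), and to 5 with library weights (Zeb2 gained, adjusted p = 0.0131). In Double-Het against Falcor-/- it went from 4 to 2 with only these genotypes, 0 with the endothelial and 1 with the fibroblast or immediate early covariate. Calls over all 15249 genes also fell with the endothelial, fibroblast, macrophage and immediate early covariates, given here in that order. Against wild type they went from 1444 to 165, 998, 50 and 169 in Falcor-/- and from 932 to 0, 0, 906 and 481 in Foxa2+/- libraries. In Double-Het libraries they went from 2254 to 1, 4, 348 and 1707. Between Falcor-/- and Foxa2+/- libraries they went from 2540 to 82, 1316, 163 and 2485. Double-Het against Foxa2+/- went from 370 to 259, 292, 4 and 29, and Double-Het against Falcor-/- from 785 to 4, 7, 634 and 144. Where few of all genes were called, a count of 0 does not set the 8 genes apart. Where the count of the 8 genes was 0, between 0 and 5 of them had an unadjusted p under 0.05 (limma). Leaving out 1 library at a time gave counts of 1 to 2, 0 to 2, 5 to 5, 0 to 3, 1 to 4 and 2 to 4 in Falcor-/-, Foxa2+/- and Double-Het against wild type, Falcor-/- against Foxa2+/-, Double-Het against Foxa2+/- and Double-Het against Falcor-/-.

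Signs also turned. In Falcor-/- against wild type, Ccn2 became 0.13 (endothelial covariate) and 0.35 (fibroblast), Tgfb2 0.0162, 0.15 and 0.0839 (endothelial, fibroblast, immediate early), Snai1 -0.0210 and Tgfbi 0.26 (macrophage) and Ccn1 -0.0263 (immediate early). Leaving out a library gave -0.32 to 0.0591 for Thbs1 and -0.0433 to 0.21 for Snai1. In Foxa2+/- against wild type, the endothelial covariate gave 0.0825 for Snai1, 0.37 for Zeb2, 0.27 for Ccn1 and 0.0845 for Ccn2, and the fibroblast covariate 0.10 for Snai1, 0.16 for Snai2, 0.25 for Ccn1 and -0.0124 for Tgfbi. Leaving out a library gave -0.0719 to 0.11 for Tgfbi and -0.22 to 0.19 for Ccn1. In Double-Het against wild type, Snai2 became 0.22 and 0.82 and Tgfb2 0.36 and 0.37 (endothelial, fibroblast). Except for Ccn2 in Foxa2+/-, none of these was called before. The cause was not tested. With depth unknown, the counting error of low levels such as those of Snai1 and Snai2 cannot be given.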
